A study of Arabidopsis thaliana with 30 samples.

Results

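AT3G15670, AT4G36600, LEA18 (AT2G35300) and LEA4-5 (AT5G06760) are 4 late embryogenesis abundant (LEA) genes of Arabidopsis thaliana, followed here across developing seeds of wild-type and maturation mutant plants. They were selected on measured values, because their signal at 8 days after flowering (DAF) stood far above wild type in mutant seeds, and they are 4 of 13356 genes that the array measured with a probe set annotated to 1 gene. Each has 1 such probe set. Seeds were dissected from the siliques of homozygous fus3-3 plants and their wild type Col-0, and of homozygous lec1-1 and lec2-1 plants and their wild type WS, at 8 and 12 DAF. This gave 10 groups of 3 arrays, described in the labels as biological replicates from triplicate batches of plants. The Col-0 arrays at 12 DAF carry a number in 2 parts in their titles, and nothing else in the labels sets them apart. The values are log2 signal, the 12 arrays of Col-0 and fus3-3 were fitted apart from the 18 arrays of WS, lec1-1 and lec2-1, and 3 arrays a group set a limit to the precision.

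LEA proteins are small, very hydrophilic and largely unfolded in solution, and they build up when the embryo prepares for drying, where they are thought to protect membranes and enzymes. Their genes are switched on late in seed maturation, in part through the hormone abscisic acid (ABA) and the maturation regulators. FUS3 and LEC2 bind DNA through a B3 domain, whereas LEC1 works as part of an NF-Y complex, and all of them direct seed maturation. Mutants in FUS3 and LEC1 are known for seeds that do not survive drying well. AT3G15670 and AT4G36600 belong to the LEA_4 group of the family, whose proteins are built from a repeated short motif that can fold into a helix as water is lost. LEA18 (also called LEA4-2) and LEA4-5 belong to the smaller LEA_1 group, and LEA4-5 is also known as a gene that responds to water deficit in vegetative tissue.

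At 8 DAF all 4 genes stood high in fus3-3 and lec1-1 seeds and low in both wild types, while lec2-1 seeds kept close to WS. These 8 DAF values chose the genes, so they are described here without a test. AT3G15670 had 13.82, 13.26 and 13.18 log2 signal on the fus3-3 arrays, against 7.23, 7.49 and 6.13 on the Col-0 arrays. In the other background it had 13.47, 13.37 and 13.13 in lec1-1 and 8.98, 8.74 and 8.82 in lec2-1, against 8.48, 8.41 and 8.52 in WS. Every fus3-3 and lec1-1 array lay above every wild-type array, by a log2 difference of 6.47 ± 0.35 (standard error, SE, of the fit, as after all log2 differences below) in fus3-3 and 4.86 ± 0.11 in lec1-1, or 88.7-fold and 29.0-fold. In whole seeds, more cells that carry the transcript and more transcript per cell cannot be told apart.

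AT4G36600 had 10.03, 9.07 and 9.32 log2 signal in fus3-3 against 3.46, 3.14 and 3.02 in Col-0 at 8 DAF. It had 8.42, 8.60 and 8.86 in lec1-1 and 3.53, 3.67 and 3.41 in lec2-1, against 3.20, 3.48 and 3.70 in WS. The wild-type and lec2-1 values lay in the dim part of the array, where 38.1% to 44.1% of all probe sets were dimmer, and the lec2-1 and WS arrays overlapped. The log2 difference was 6.27 ± 0.50 in fus3-3 and 5.16 ± 0.31 in lec1-1.

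The LEA_1 genes also stood high in fus3-3 and lec1-1 and low elsewhere. LEA18 had 12.73, 11.91 and 12.39 log2 signal in fus3-3 against 6.51, 6.74 and 6.55 in Col-0 at 8 DAF. It had 12.54, 12.62 and 12.37 in lec1-1 and 7.90, 7.43 and 7.85 in lec2-1, against 7.48, 7.23 and 7.25 in WS. The differences were 5.74 ± 0.24 in fus3-3 and 5.19 ± 0.17 in lec1-1 on the log2 scale, with no overlap between mutant and wild-type arrays in either. LEA4-5 had 12.10, 11.52 and 11.75 log2 signal in fus3-3 against 6.58, 6.86 and 5.91 in Col-0. It had 10.90, 11.01 and 10.80 in lec1-1 and 7.37, 7.34 and 7.29 in lec2-1, against 7.02, 6.87 and 6.97 in WS. Its difference was 5.34 ± 0.27 in fus3-3 and 3.95 ± 0.21 in lec1-1, again with no overlap. In lec2-1 the differences from WS at 8 DAF ran from 0.07 ± 0.31 for AT4G36600 to 0.41 ± 0.17 for LEA18, with overlapping arrays for both. Every lec2-1 array lay above every WS array for AT3G15670, at 0.38 ± 0.11, and for LEA4-5, at 0.38 ± 0.21. The lec2-1 differences were thus small but all upward, and the large early difference that names the set belonged to fus3-3 and lec1-1 seeds.

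For background, the fit called 4.03% of all genes higher in fus3-3 at 8 DAF, 4.75% in lec1-1 and 1.60% in lec2-1, where a gene is called at 2-fold or more with an adjusted p below 0.05. All 4 genes met that rule in fus3-3 and in lec1-1 and 0 of 4 in lec2-1, and nothing is read from these counts because the same comparisons chose the genes. The share of all genes whose arrays do not overlap was not counted for any comparison. Array separation is therefore given, here and below, only as a description.

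**Figure D1:**
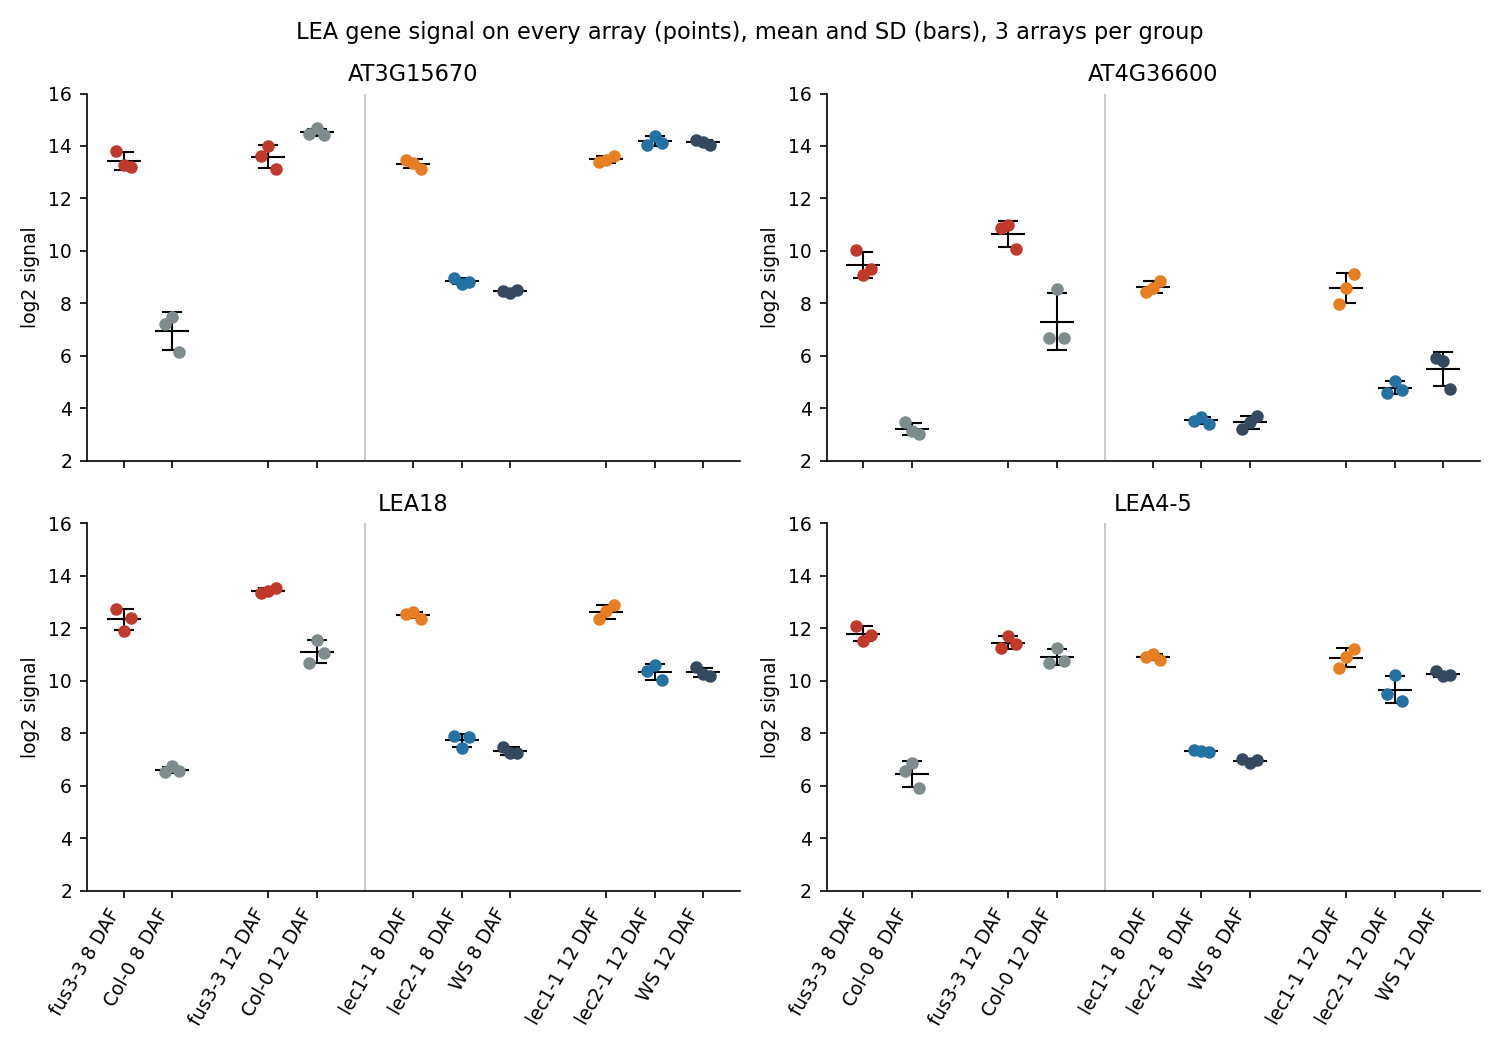
Log2 signal of each gene on every array, in 4 panels, with the Col-0 set left of the grey line and the WS set right of it. Points are arrays, and bars are the mean and standard deviation (SD) of 3 arrays. At 8 DAF fus3-3 and lec1-1 stand apart from Col-0, lec2-1 and WS for all 4 genes, and at 12 DAF the groups lie closer, with AT4G36600 and LEA18 still higher in fus3-3 and lec1-1.

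At 12 DAF the wild types and lec2-1 stood above their own 8 DAF levels, nearer to the levels that fus3-3 and lec1-1 had at 8 DAF. In Col-0, AT3G15670 was higher at 12 than at 8 DAF by 7.57 ± 0.35 log2 units, LEA18 by 4.51 ± 0.24, LEA4-5 by 4.46 ± 0.27 and AT4G36600 by 4.09 ± 0.50. In WS the same differences were 5.67 ± 0.11 for AT3G15670, 3.29 ± 0.21 for LEA4-5, 3.01 ± 0.17 for LEA18 and 2.02 ± 0.31 for AT4G36600. In lec2-1 they were 5.33 ± 0.11, 2.33 ± 0.21, 2.61 ± 0.17 and 1.24 ± 0.31 in the same order of genes. The 12 and 8 DAF arrays did not overlap for any of the genes in these genotypes, and the share of all genes without overlap was not counted. The 8 DAF arrays of each genotype also took part in choosing the genes, so the changes with age are given as a description.

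Seeds of lec1-1 showed hardly any difference between the ages. Their log2 difference at 12 against 8 DAF lay between −0.06 ± 0.31 for AT4G36600 and 0.17 ± 0.11 for AT3G15670, and the arrays of the 2 ages overlapped for all 4 genes. In fus3-3 the picture was mixed, with AT4G36600 higher at 12 DAF by 1.17 ± 0.50 and LEA18 by 1.09 ± 0.24, without overlap of the arrays, while AT3G15670 differed by 0.17 ± 0.35 and LEA4-5 by −0.34 ± 0.27, with overlap. As background, 6.20% of all genes were called higher at 12 than at 8 DAF in lec1-1, 4.25% in fus3-3, 8.42% in Col-0, 6.45% in WS and 6.64% in lec2-1.

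Mutant seeds at 8 DAF can be set beside their wild type at 12 DAF, again as a description. For 3 of the genes the mutant had already passed the later wild-type level. AT4G36600 averaged 9.48 ± 0.50 (SD, n = 3) in fus3-3 at 8 DAF and 7.30 ± 1.09 in Col-0 at 12 DAF, and 8.63 ± 0.22 in lec1-1 and 5.48 ± 0.65 in WS. LEA18 averaged 12.34 ± 0.41 in fus3-3 at 8 DAF and 11.11 ± 0.44 in Col-0 at 12 DAF, and 12.51 ± 0.12 in lec1-1 and 10.33 ± 0.17 in WS. LEA4-5 stood above by a smaller margin, 0.88 log2 units in fus3-3 and 0.66 in lec1-1. In both mutants every array lay above every wild-type array for these 3 genes, although the share of all genes separated so was not counted. AT3G15670 was the exception. Its mean at 8 DAF differed from the wild-type mean at 12 DAF by −1.10 log2 units in fus3-3 and −0.81 in lec1-1, or 46.7% and 57.0% of the wild-type signal, and all mutant arrays lay below. In lec2-1 at 8 DAF the genes reached 2.56% of the WS signal at 12 DAF for AT3G15670 and 26.0% for AT4G36600, with 16.5% for LEA18 and 13.3% for LEA4-5.

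The early differences that name the set are from 8 DAF, so mutant and wild type were tested with limma only at 12 DAF. The spread in each test was estimated from all arrays of the background, those at 8 DAF included. Benjamini-Hochberg adjusted p-values were taken across the 13356 genes. The 12 DAF values were also known when the genes were chosen, so these p-values give no independent check of the choice. AT4G36600 and LEA18 were higher in fus3-3 and in lec1-1, whereas AT3G15670 and LEA4-5 passed the 2-fold rule in neither. The fit called 2 of 4 genes higher and 0 lower in fus3-3, where it called 11.9% of all genes higher and 11.5% lower, and the same count in lec1-1, where it called 10.4% higher and 9.93% lower. In lec2-1 it called 0 of 4, where it called 5.08% of all genes higher and 1.32% lower. Whether arrays overlap at 12 DAF is stated for each gene below, with the share over all genes not counted.

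AT4G36600 had 10.88, 10.98 and 10.07 log2 signal in fus3-3 at 12 DAF, against 6.66, 8.55 and 6.68 in Col-0. It rose by 3.35 ± 0.50 (adjusted p = 0.00055), or 10.2-fold, and the lowest fus3-3 array lay above the highest Col-0 array although Col-0 replicate 2 stood well above the other two. Without that replicate the rise was 3.97 on the log2 scale (adjusted p = 3.9e-05, over all alternatives 3.7e-07 to 0.013). In lec1-1 it had 7.99, 8.60 and 9.12 and in lec2-1 4.59, 5.05 and 4.70, against 5.91, 5.80 and 4.73 in WS. It rose by 3.09 ± 0.31 in lec1-1 (adjusted p = 1.2e-06), 8.50-fold. In lec2-1 it differed from WS by −0.70 ± 0.31 (adjusted p = 0.086), with overlapping arrays. That value passed the rule without WS replicate 3, at −1.08 (adjusted p = 0.0097, over all alternatives 0.0097 to 0.27).

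LEA18 had 13.34, 13.43 and 13.52 log2 signal in fus3-3 at 12 DAF, against 10.69, 11.57 and 11.08 in Col-0. It rose by 2.32 ± 0.24 (adjusted p = 4.5e-05), with no overlap of the arrays. In lec1-1 it had 12.35, 12.67 and 12.89 and in lec2-1 10.37, 10.61 and 10.02, against 10.52, 10.26 and 10.20 in WS. All lec1-1 arrays lay above those of WS, a rise of 2.31 ± 0.17 (adjusted p = 6.0e-08), whereas the lec2-1 arrays overlapped them, with a difference of 0.00 ± 0.17 and a 95% interval from −0.37 to 0.37 (adjusted p = 0.99). Of the genes of the set, LEA18 had the narrowest spread in fus3-3 at 12 DAF, an SD of 0.09. Its signal there was at the bright end of the arrays, with 99.7% to 99.8% of probe sets dimmer.

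AT3G15670 had 13.63, 14.00 and 13.14 log2 signal in fus3-3 at 12 DAF, against 14.47, 14.67 and 14.42 in Col-0. It had 13.38, 13.48 and 13.63 in lec1-1 and 14.03, 14.39 and 14.11 in lec2-1, against 14.23, 14.13 and 14.04 in WS. All fus3-3 and lec1-1 arrays thus lay below their wild type, the opposite side from 8 DAF. The differences were under 2-fold, −0.93 ± 0.35 in fus3-3 (adjusted p = 0.060) and −0.64 ± 0.11 in lec1-1 (adjusted p = 0.00017). Without fus3-3 replicate 2 the value became −1.14 and passed the rule (adjusted p = 0.045, over all alternatives 0.0032 to 0.18), and that array also had the highest actin difference between the 3' and 5' control probe sets, 6.78 log2 units against 5.55 and 5.40 on the other fus3-3 arrays. Its probe set was among the brightest, with over 99.7% of probe sets dimmer on each array at 12 DAF, and the difference in lec1-1 shrank to −0.09 when the values were quantile normalized once more (adjusted p = 0.55, over all alternatives 8.0e-05 to 0.55). In lec2-1 the difference was 0.04 ± 0.11 (adjusted p = 0.79), with a 95% interval from −0.19 to 0.27.

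LEA4-5 had 11.23, 11.72 and 11.39 log2 signal in fus3-3 at 12 DAF, against 10.70, 11.26 and 10.75 in Col-0, and these arrays overlapped. It had 10.50, 10.92 and 11.23 in lec1-1 and 9.50, 10.24 and 9.25 in lec2-1, against 10.36, 10.17 and 10.21 in WS. Every lec1-1 array lay above WS and 2 of the 3 lec2-1 arrays lay below it. The differences were 0.54 ± 0.27 in fus3-3 (adjusted p = 0.12), 0.64 ± 0.21 in lec1-1 (adjusted p = 0.015) and −0.59 ± 0.21 in lec2-1 (adjusted p = 0.041), so none reached 2-fold. Over all alternatives the adjusted p ran from 0.0028 to 0.076 in lec1-1 and from 0.0013 to 0.18 in lec2-1.

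**Figure D2:**
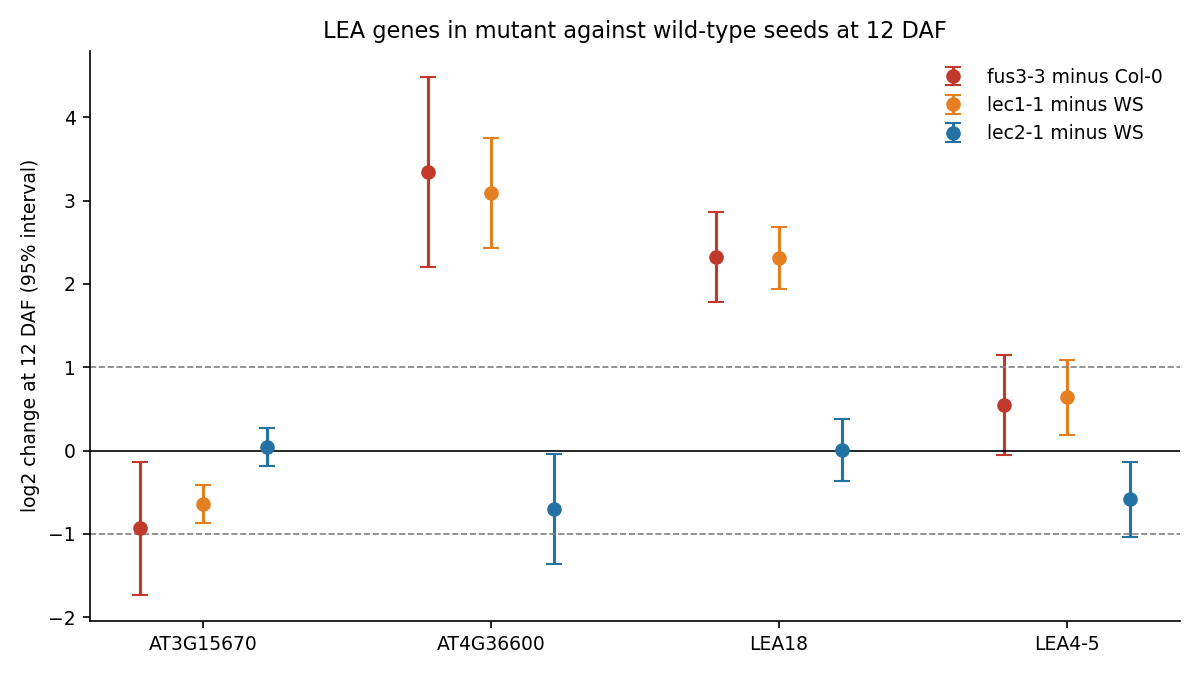
Log2 change at 12 DAF in each mutant against its own wild type, with the 95% interval of the fit from 3 arrays per group. Dashed lines mark a 2-fold change. AT4G36600 and LEA18 lie above the upper line in fus3-3 and lec1-1, while AT3G15670 and LEA4-5 lie between the lines in every mutant.

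Mutants of the same background were also compared directly at 12 DAF. In lec1-1 against lec2-1, 3 of the 4 genes were called higher, where 5.51% of all genes were. AT4G36600 was higher in lec1-1 by 3.79 ± 0.31 (adjusted p = 4.1e-07), LEA18 by 2.30 ± 0.17 (adjusted p = 1.8e-07) and LEA4-5 by 1.22 ± 0.21 (adjusted p = 0.00036). AT3G15670 was lower in lec1-1 by less than 2-fold, at −0.68 ± 0.11 (adjusted p = 0.00019), and this shrank to −0.20 under repeated quantile normalization (adjusted p = 0.22, over all alternatives 8.7e-05 to 0.22). The effects in fus3-3 and in lec1-1 come from separate fits and were not tested against each other.

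Ranked by mean signal over the 10 groups, each gene had its own order. AT4G36600 and LEA18 were highest in fus3-3 at 12 DAF, and in both genes the 4 groups of fus3-3 and lec1-1 seeds filled the top ranks, next to Col-0 at 12 DAF, whose arrays overlapped those of lec1-1 at 12 DAF for AT4G36600 and not those of the neighbour, fus3-3 at 8 DAF, for LEA18. LEA4-5 was highest in fus3-3 at 8 DAF, and the neighbours from there through fus3-3 at 12 DAF, Col-0 at 12 DAF, lec1-1 at 8 DAF and lec1-1 at 12 DAF overlapped one with the next. AT3G15670 was highest in Col-0 at 12 DAF, followed by lec2-1 and WS at 12 DAF, whose arrays overlapped, and then by the 4 groups of fus3-3 and lec1-1, whose neighbours also overlapped. Col-0 at 8 DAF was the lowest group for each gene, without overlap with the next group for AT3G15670, LEA18 and LEA4-5, and with overlap for AT4G36600.

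As a description of likeness within the set, LEA18 and LEA4-5, the LEA_1 genes, correlated at r = 0.97 over the 10 group means. The LEA_4 genes AT3G15670 and AT4G36600 correlated at r = 0.71, the lowest of the 6 pairs. All 10 points of each correlation come from the same arrays, and the wild-type low at 8 DAF that chose the genes is among them.

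Within the LEA family, 50 genes were listed and 34 of them had a usable probe set, among them the 4 genes and 30 others. At 12 DAF the others moved in both directions. In fus3-3, 9 of the 30 rose and 14 fell, with a median log2 change of −0.48 beside −0.06 over all genes. In lec1-1, 7 rose and 10 fell, with a median of −0.24 beside −0.11, and in lec2-1, 5 rose and 6 fell, with a median of −0.20 beside −0.08. The shares called over all genes are those given above for the 4 genes. Under centring on reference genes the split of calls over all genes in lec1-1 moved to 1653 higher and 965 lower, against 1383 and 1326 in the deposited values. The split of the 34 LEA genes also depended on scaling. In lec1-1 it moved from 9 higher and 10 lower to 10 and 8 with that centring. In fus3-3 it moved from 11 and 14 to 11 and 10 under repeated quantile normalization. In lec2-1 it stayed at 5 and 6 under both.

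The third LEA_1 gene, AtLEA4-1 (AT1G32560), went the other way from LEA18 at 12 DAF. It averaged 11.58 ± 0.08 log2 signal in fus3-3 and 12.68 ± 0.13 in Col-0 (SD, n = 3), a change of −1.10 ± 0.18 (limma adjusted p = 0.00091). In the WS set it averaged 11.10 ± 0.18 in lec1-1 and 12.34 ± 0.10 in WS, a change of −1.25 ± 0.13, while lec2-1 differed by −0.33 ± 0.13. At 8 DAF its difference was 1.34 ± 0.18 in fus3-3, 0.05 ± 0.13 in lec1-1 and −0.87 ± 0.13 in lec2-1. Among the 13 other measured LEA_4 genes, 4 rose and 6 fell in fus3-3 at 12 DAF, 2 rose and 5 fell in lec1-1, and 2 rose and 2 fell in lec2-1. Over all genes, 11.9% were called higher and 11.5% lower in fus3-3, 10.4% and 9.93% in lec1-1, and 5.08% and 1.32% in lec2-1.

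Of the other LEA genes, the largest rise at 12 DAF in each mutant was that of DI21 (AT4G15910), a drought-induced gene of the LEA_3 group, by 4.58 ± 0.27 in fus3-3, 4.38 ± 0.15 in lec1-1 and 2.05 ± 0.15 in lec2-1. The small dehydrin gene AT1G54410 rose by 3.23 ± 0.21 in fus3-3, 2.50 ± 0.13 in lec1-1 and 1.75 ± 0.13 in lec2-1, the dehydrin gene AT4G38410 by 3.78 ± 0.37 in fus3-3 and 2.63 ± 0.14 in lec1-1, and COR15A, a cold-regulated chloroplast protein of the LEA_4 group, by 3.58 ± 0.36 in fus3-3, 2.03 ± 0.43 in lec1-1 and 1.88 ± 0.43 in lec2-1. The falls belonged to other members. M10 and M17 changed by −5.89 ± 0.59 and −4.35 ± 0.69 and the dehydrin gene LTI30 by −3.49 ± 0.53 in fus3-3. AT2G21490, a dehydrin, AT3G53040 and AT2G42560 changed by −1.90 ± 0.18, −1.78 ± 0.30 and −1.64 ± 0.38 in lec1-1. In lec2-1, AT3G17520 of the LEA_4 group changed by −10.82 ± 0.13, M10 by −4.07 ± 0.49 and AT3G22490 by −1.64 ± 0.27. The adjusted p of these changes ran from 3.1e-15 to 0.0046. Some had 1 side at the dim end of the arrays, with AT3G17520 at 2.33 log2 signal and AT3G22490 at 2.46 in lec2-1, M17 at 2.50 in fus3-3 and COR15A at 2.45 in Col-0 and 2.49 in WS. The floor of the signal limits the fitted sizes there, so they are not exact.

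In fus3-3 and lec1-1 the smallest 8 DAF difference within the set was that of LEA4-5, and the family members next in size were LEA_4 genes in fus3-3, with AT3G02480 at 4.43 ± 0.32, AT3G53040 at 3.98 ± 0.44 and AT1G72100 at 3.64 ± 0.31. In lec1-1 they were AT3G53040 at 3.72 ± 0.30, DI21 at 2.87 ± 0.15 and AT3G02480 at 2.43 ± 0.14. In lec2-1 the largest differences were −8.12 ± 0.13 for AT3G17520, again with lec2-1 at the dim end, 2.03 ± 0.16 for AT2G03850 and −1.24 ± 0.15 for AT5G44310. AT3G53040 thus resembled the set at 8 DAF in fus3-3 and lec1-1, yet at 12 DAF it was lower in all 3 mutants, at −3.12 ± 0.44 in fus3-3 and −1.07 ± 0.30 in lec2-1 beside the value for lec1-1 above. Within the set, AT3G15670 was also lower at 12 DAF in fus3-3 and lec1-1, by less than 2-fold. These 8 DAF values are a description, since the set was taken from the same family on the same arrays. Of 40 listed ABA genes 1 was measured, the bZIP factor gene EEL (AT2G41070). It fell at 12 DAF in fus3-3, at −2.25 ± 0.22 (adjusted p = 3.6e-05), and in lec1-1, at −2.33 ± 0.13 (adjusted p = 2.9e-09). In lec2-1 it was lower by less than 2-fold, at −0.56 ± 0.13 (adjusted p = 0.0057).

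**Figure D3:**
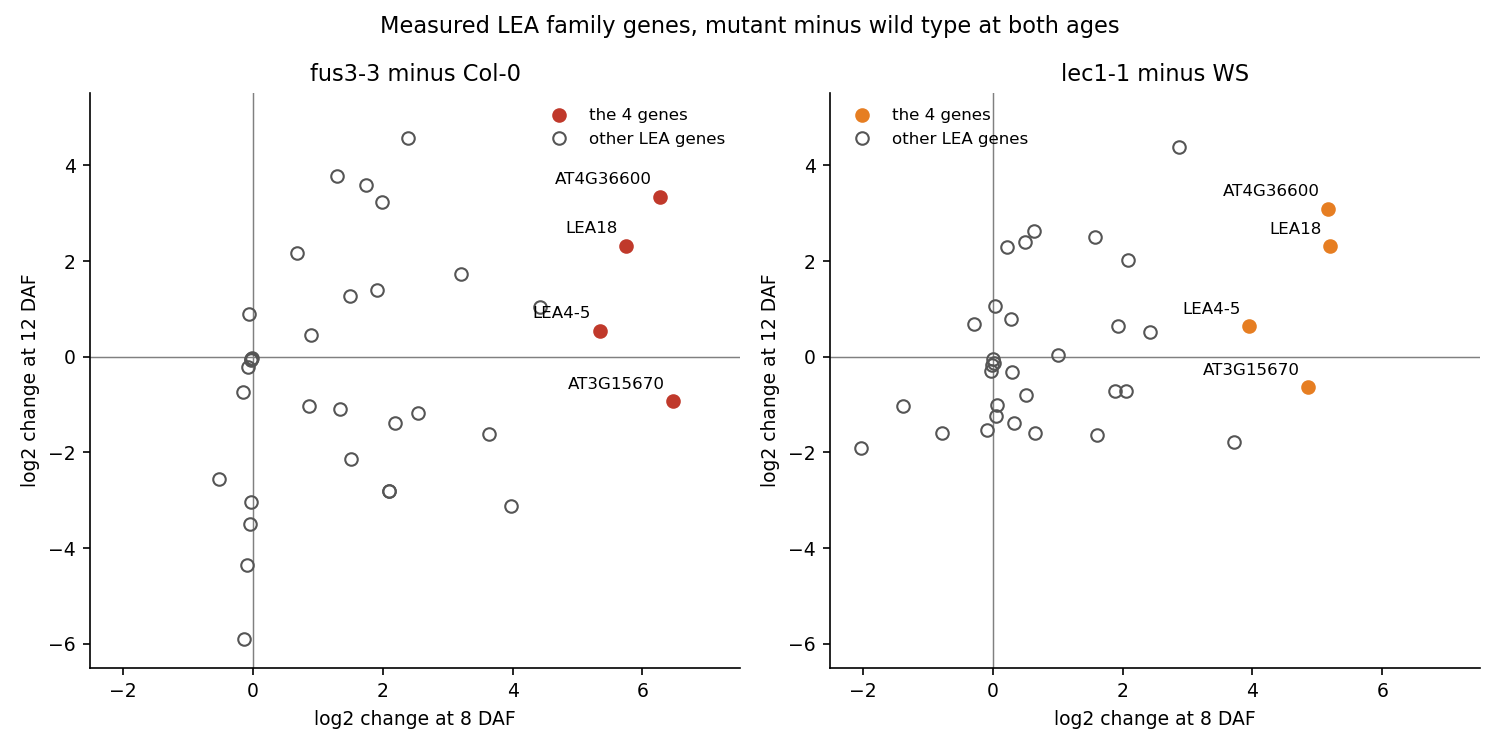
Log2 change of the 34 measured LEA family genes at 8 DAF (horizontal) and 12 DAF (vertical), in fus3-3 against Col-0 on the left and lec1-1 against WS on the right. Filled points are the 4 genes and open points the 30 others. The 4 genes lie farthest right, which chose them, and spread at 12 DAF from −0.93 to 3.35 in fus3-3 and from −0.64 to 3.09 in lec1-1.

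Over 6678 genes whose highest group mean was at or above the median, the 10 group means were correlated with the mean profile of the 4 genes. LEA4-5 ranked 1 and LEA18 ranked 2, at r = 0.99 each, AT4G36600 ranked 6 at r = 0.93 and AT3G15670 ranked 13 at r = 0.91, as parts of that profile. The 6 most similar other genes were SERPIN1 (AT1G47710), which encodes a protease inhibitor, at r = 0.95, AT3G02480 at r = 0.95, AT5G11730 at r = 0.93, AT3G51270 at r = 0.93, AT2G18340 at r = 0.92 and AT3G03550 at r = 0.92. AT3G02480 and AT2G18340 are LEA_4 genes. Likeness of shape did not mean likeness of size. The group means of SERPIN1 spanned 0.88 log2 units and those of AT3G02480 4.73, against 5.34 for LEA4-5 and 7.57 for AT3G15670. At 12 DAF, AT3G02480 rose by 1.04 ± 0.32 in fus3-3 (adjusted p = 0.026) and differed by 0.52 ± 0.14 in lec1-1, and AT2G18340 rose by 1.73 ± 0.32 in fus3-3 (adjusted p = 0.0019) and differed by 0.64 ± 0.27 in lec1-1. These correlations rest on 10 group means that share arrays and are given with no test.

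**Figure D4:**
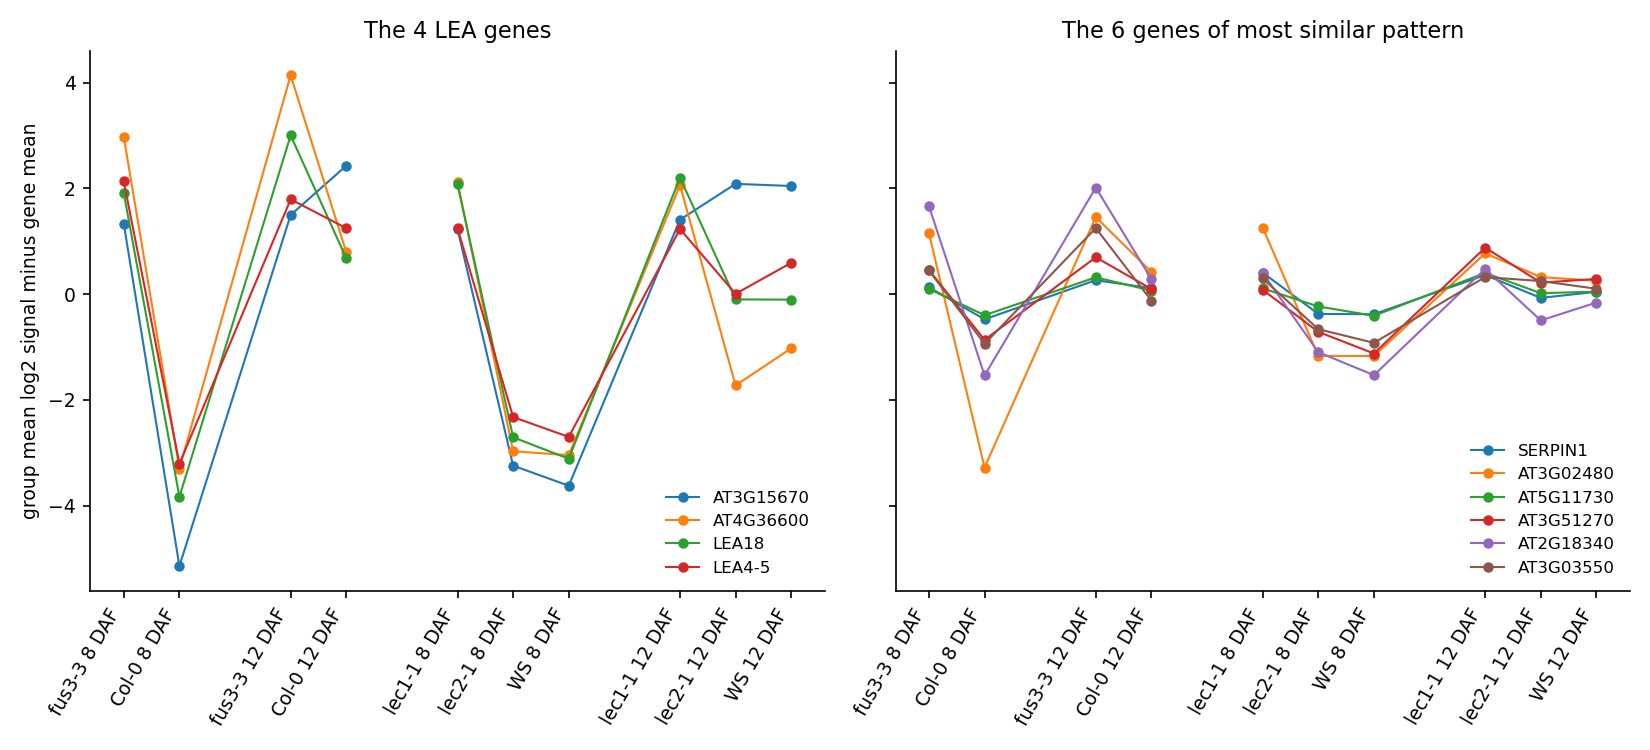
Group means of log2 signal minus the gene's own mean over the 10 groups, for the 4 genes on the left and the 6 genes of highest correlation with their mean profile on the right. Lines join the groups within the Col-0 set and within the WS set as a guide to the eye. The right panel shows the same low points in Col-0, lec2-1 and WS at 8 DAF, over a smaller range than on the left for every gene.

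The arrays as a whole had medians between 4.30 and 4.71 log2 signal, and replicates of a group correlated at r = 0.984 to 0.996 across genes (not independent points). The regulator genes FUS3, LEC1, LEC2, ABI3 and L1L, a relative of LEC1, were not analysed here, as no probe set was annotated to any of them alone, so the genotypes were not checked against the mutated genes. The tissue was described with 9 measured of 20 reserve genes, storage globulins and oil body proteins of the seed. Their summed signal on the log2 scale ran from 14.45 to 16.90 over all groups. The mutated genes direct seed maturation, so reserve genes cannot check the tissue apart from the genotype. At 8 DAF 5 of these 9 were called lower and 1 higher in fus3-3, 7 lower in lec1-1 and 0 in lec2-1, where 4.25%, 5.77% and 1.08% of all genes were called lower. At 12 DAF 9 of these 9 fell in fus3-3, 8 in lec1-1 and 0 in lec2-1, where 11.5%, 9.93% and 1.32% of all genes were called lower. In the same comparisons ALC, the 1 measured of 6 silique wall markers, rose in fus3-3 by 1.67, in lec1-1 by 2.06 and in lec2-1 by 1.57 log2 units, its signal at 12 DAF spanning 4.94 to 5.70 over the 3 mutants and 3.21 to 4.15 over the wild types. Of 3 measured of 11 endosperm markers, MPC was called higher in fus3-3 and lec1-1 at 12 DAF and AGL62 and IKU2 lay under 3 log2 signal in all groups. Of the 3 measured of 12 seed coat markers, 0 were called at 12 DAF, and 1 was called lower at 8 DAF in fus3-3. For the actin control, the 3' probe set minus the 5' probe set spanned 5.40 to 6.78 in fus3-3 at 12 DAF and 4.83 to 4.90 in Col-0, and 5.34 to 5.67 in lec1-1 and 5.32 to 5.35 in WS, while that of the GAPDH control was lower, 1.71 to 2.08 in fus3-3 against 2.07 to 2.74 in Col-0 and 1.84 to 1.88 in lec1-1 against 2.19 to 2.31 in WS. At 8 DAF the actin difference spanned 5.92 to 6.08 in lec1-1 and 5.78 to 5.97 in lec2-1, above the 5.65 to 5.73 of WS, and 5.54 to 5.68 in fus3-3, which overlapped the 5.49 to 5.56 of Col-0. The part of these in the results at either age was not tested.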

How the data were processed

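Total RNA of dissected seeds was hybridized as biotin-labelled cRNA to an Affymetrix array, per the labels' protocols. Per the submitters' processing notes, the authors used GCOS 1.3 along with GCRMA, and they deposited log2 signal for 22810 probe sets. A joint run of the 30 arrays is not stated in these notes. Probe sets were named through the array annotation and a TAIR10.1 gene table. Of them 13513 had 1 gene, 503 several and 8730 none, beside 64 controls. Where a gene had several of its own, the one of highest mean was kept, leaving 13356 genes.

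The deposited log2 values were fitted with limma 3.58.1 in R 4.3.3 (1 mean per group, moderated variances), separately for each background, and calls need an adjusted p (Benjamini-Hochberg) below 0.05 and 2-fold. The fit was tested on simulated data. Python 3.11.15 with matplotlib 3.10.9 drew the figures. The genes, lists and tests were chosen with earlier results of these data known. By the rule for naming, other LEA genes are the 3 largest called rises and falls at 12 DAF in each mutant and the 3 largest differences at 8 DAF. AtLEA4-1 and the 12 DAF values of AT3G02480 and AT2G18340 were added after their values were seen. The replicate numbers pair arrays only for fus3-3 at 12 against 8 DAF, where same-numbered deviations correlated at 0.25, 0.22 and 0.45. A block there, an alternative chosen after seeing the data, moves only their SE, to 0.26 for AT3G15670, 0.49 for AT4G36600, 0.27 for LEA18 and 0.25 for LEA4-5.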

Additional observations from a re-analysis of the deposited data

Results flagged for a closer look

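AT3G15670 lay on opposite sides of wild type at the 2 ages. In fus3-3 the log2 change against Col-0 was 6.47 at 8 DAF and −0.93 at 12 DAF, and in lec1-1 against WS it was 4.86 at 8 DAF and −0.64 at 12 DAF, with every mutant array above the wild-type arrays at 8 DAF and every one below them at 12 DAF. This difference between the ages was not tested, because the 8 DAF arrays chose the gene, and the share of all genes separated so was not counted. The 12 DAF change in lec1-1 shrank to −0.09 under repeated quantile normalization. Such a change of side was not particular to AT3G15670 within the LEA family. In fus3-3, AT3G53040 changed by 3.98 at 8 DAF and −3.12 at 12 DAF, and AT2G42560 by 2.09 and −2.80. In lec1-1 the values were 3.72 and −1.78 for AT3G53040 and 1.60 and −1.64 for AT2G42560. DI21, by contrast, was higher at both ages in both mutants.

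The effects of lec1-1 and lec2-1 at 12 DAF, each against WS, were tested against each other. The difference was called, at 2-fold or more, for 3 genes. On the log2 scale, lec1-1 minus lec2-1 was 3.79 for AT4G36600 (limma adjusted p = 4.1e-07), 2.30 for LEA18 (adjusted p = 1.8e-07) and 1.22 for LEA4-5 (adjusted p = 0.00036), with all lec1-1 arrays above all lec2-1 arrays in each. How many of all genes separate so was not counted. AT3G15670 differed the other way, by less than 2-fold, at −0.68 (adjusted p = 0.00019). This shrank to −0.20 under repeated quantile normalization (adjusted p = 0.22).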

How the results depend on the processing

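AT4G36600 and LEA18 kept their calls in fus3-3, lec1-1 and lec1-1 against lec2-1 at 12 DAF under all 16 alternatives, as did LEA4-5 in lec1-1 against lec2-1. The fold minimum decided other calls. Without it, AT3G15670 was called lower in lec1-1 against WS (−0.64) and lec2-1 (−0.68), and LEA4-5 was called higher in lec1-1 (0.64) and lower in lec2-1 (−0.59). Leaving out 1 array at a time gave −1.14 to −0.71 for AT3G15670 in fus3-3 and −1.08 to −0.49 for AT4G36600 in lec2-1. With no fold minimum the fit called 5615 genes in fus3-3, 9069 in lec1-1, 4934 in lec2-1 and 4202 in lec1-1 against lec2-1, where it had called 3130, 2709, 854 and 1469, and LEA family calls became 31 in lec1-1 (from 19) and 22 in lec1-1 against lec2-1 (from 14). With all probe sets, more features being tested, the calls were 6078, 5347, 1795 and 2994. Centring on reference genes shifted log2 changes by 0.21 in lec1-1 against WS and 0.22 against lec2-1, where calls became 1124 higher and 508 lower, against 736 and 733. The replicate number as a block, which pairs no arrays of these comparisons, changed no call of the 4 genes. With the block, AT3G15670 in fus3-3 stayed at −0.93 (adjusted p = 0.026) and the fit called 3122 genes in fus3-3, 2708 in lec1-1, 852 in lec2-1 and 1466 in lec1-1 against lec2-1. In lec2-1, AT3G15670 (−0.07 to 0.11) and LEA18 (−0.13 to 0.16) took either sign when 1 array was left out. At 8 DAF, the 4 genes kept a difference of 3.89 or more in fus3-3 and lec1-1 under the 8 alternatives run there. The genes were chosen for large differences on these same arrays, so this is a description and no support for them.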

Other observations

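Within groups, the 4 genes often moved together from array to array. In 5 of the 10 groups the same array was the highest of its 3 for all 4 genes, and in 1 group the same array was the lowest. The deviations of the 30 arrays from their group means correlated at r = 0.75 for AT3G15670 and LEA4-5, 0.72 for LEA18 and LEA4-5 and 0.38 for AT3G15670 and LEA18. These points share arrays and their normalization, and the values are given as a description with no test.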
